A study of Homo sapiens with 56 samples.

Results

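Mitochondria turn propionate, the last carbons of odd-chain fatty acids and the breakdown products of valine, isoleucine, methionine and threonine into propionyl-CoA, and 9 genes of that route were followed here in human colorectal cancer cells. The genes were listed by name (ACSS1, ALDH6A1, PCCA, PCCB, MCEE, MMUT, MMACHC, MMAB and MMAA) and matched by symbol to the Ensembl identifiers of the deposited count tables. All 9 were found in both tables, among 16485 genes in the table of 4 lines and 16454 genes in the table of 3 lines.

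Propionyl-CoA carboxylase, a biotin enzyme built from PCCA and PCCB, makes methylmalonyl-CoA. The epimerase MCEE and the cobalamin-dependent mutase MMUT then convert it to succinyl-CoA, which enters the tricarboxylic acid cycle. MMACHC, MMAB and MMAA prepare the cobalamin cofactor and load it onto the mutase. Many bacteria and fungi instead use the methylcitrate cycle, in which propionyl-CoA is joined to oxaloacetate and 2-methylisocitrate (2-MiCit) is an intermediate. Loss of the carboxylase or of mutase activity causes propionic or methylmalonic acidaemia.

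The table of 4 lines holds HCT116, LoVo, SW948 and DLD1, and the table of 3 lines holds SW1417, SKCO1 and HT29. Each line was given 10 mM 2-MiCit or its vehicle, water, and each of the 14 groups had 4 RNA sequencing libraries, 56 in all. The labels describe every line as wild-type epithelial colon cells, the growth description names HCT116, LoVo, DLD-1 and SW948 alone, and the sources used here give no time of exposure. Nothing in the labels says whether the 4 libraries of a group came from separate cultures, and the p-values therefore reflect how these libraries vary, which may be technical.

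Changes were small and differed between lines. ALDH6A1 and MMUT were higher with 2-MiCit in HCT116, by 1.47-fold and 1.25-fold, and ACSS1 was higher in HT29, by 1.37-fold. These 3 calls held in 17 of 17 fits, that is, under every alternative setting tried. The other calls were of 1.18-fold or less and were lost in some fits. Differences between the untreated lines were far larger, up to 11-fold for PCCA among SKCO1, HT29 and SW1417 and between 0.213 and 199 CPM (the count scaled to the size of its library) for ACSS1 among the other 4.

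The promoters of ALDH6A1 and MMUT, the genes with the clearest rise in HCT116, are shown beside that of MMAB, which held the most CCAAT copies of the 9 genes. Each run is the 250 bases before the start site in RefSeq (GRCh38.p14), written 5′ to 3′ on the gene's own strand. Capitals mark CCAAT or its reverse complement ATTGG, the letters of the CCAAT box.
ALDH6A1, chr14:74084454-74084703, minus strand: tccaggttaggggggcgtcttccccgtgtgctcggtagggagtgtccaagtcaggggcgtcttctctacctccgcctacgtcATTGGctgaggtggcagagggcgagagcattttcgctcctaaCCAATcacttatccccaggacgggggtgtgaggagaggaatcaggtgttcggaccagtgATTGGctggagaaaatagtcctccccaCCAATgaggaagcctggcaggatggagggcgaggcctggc
MMUT, chr6:49463254-49463503, minus strand: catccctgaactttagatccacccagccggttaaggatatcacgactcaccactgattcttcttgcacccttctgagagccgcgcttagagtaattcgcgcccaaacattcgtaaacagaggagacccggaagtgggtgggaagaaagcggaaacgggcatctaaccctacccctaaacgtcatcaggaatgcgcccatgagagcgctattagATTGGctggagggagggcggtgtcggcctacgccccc
MMAB, chr12:109573505-109573754, minus strand: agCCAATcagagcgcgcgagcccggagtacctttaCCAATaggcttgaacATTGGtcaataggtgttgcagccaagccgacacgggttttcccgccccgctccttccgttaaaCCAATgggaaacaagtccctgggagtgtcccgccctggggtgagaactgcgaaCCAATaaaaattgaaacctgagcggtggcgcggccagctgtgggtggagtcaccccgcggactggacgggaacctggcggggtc

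ALDH6A1 held 4 copies of CCAAT on either strand, MMAB 5 and MMUT 1. In windows of 250 bases before and 50 after the start site, 0.991% of 35116 human promoters held 4 or more copies. At least 1 copy stood in 4 of the 9 pathway promoters, against 34.6% of all. The GC box letters GGGCGG stood in 6 of 9, against 45% of all. The letters TATAAA, GCATGCGC (NRF1), TTGCATCA (ATF4 with C/EBP) and CACGTG (E-box) and those of a sterol regulatory element stood in 0 of 9, against 11.5%, 3.05%, 0.866%, 7.26% and 0.0456% of all promoters on either strand. No motif searched contains another. A match describes the letters alone. The windows of ACSS1 and MMAA are at RefSeq starts far inside the gene span given by GENCODE. The 250 bases shown for MMAB also lie within its GENCODE span, as does nearly all of the MMACHC window. The RefSeq and GENCODE starts of the other genes differ by less.

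Library totals were 13.8 to 19.4 M counts in the table of 4 lines and 29.1 to 45.4 M in the table of 3 lines. The tables held 7 of 8 colon epithelial markers, and 7 were at or above 1 CPM in each line except HCT116, where VIL1 was below 1 and 6 were. Their sum in HCT116 was higher with 2-MiCit (5980 to 7010 CPM, against 4540 to 5030 CPM in controls). Summed fibroblast markers were at most 21.9 CPM and endothelial markers at most 1.93 CPM. The leukocyte sum, mostly CD68, was lower with 2-MiCit, without overlap, in HCT116 (4.64 to 6.27 CPM, against 6.7 to 8.2 CPM in controls), SKCO1 (21.5 to 23 CPM, against 23.5 to 26.1 CPM in controls) and SW1417 (9.46 to 11 CPM, against 14.1 to 16.1 CPM in controls). The part of these markers in the results was not tested. Each library came from 1 cell line and the tables held only 2 of 5 leukocyte markers, so the leukocyte sum is not a count of leukocytes. Fewer cells with a transcript and less RNA per cell cannot be told apart in such bulk libraries. The steepest trends of log2 CPM against log2 transcript length were in DLD1 control replicate 1 (slope -0.318) and SW948 2-MiCit replicate 2 (slope -0.24). Fold changes of MCEE in DLD1 and of MMAB in DLD1 and SW948 are given with and without them. Control levels are given with all 4 libraries.

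In HCT116, 3 of the 8 pathway genes tested were called higher with 2-MiCit and 0 lower, while 37% of all genes tested were called (19% higher, 18% lower). A gene was called at an adjusted p below 0.05 in edgeR's quasi-likelihood test, with Benjamini-Hochberg adjustment over all genes tested in that line. The share of pathway genes was therefore close to that of genes at large. In LoVo 1 of 9 was called, higher, with a background of 2.3% (1.59% higher, 0.702% lower). HT29 had 1 higher and 1 lower of 9, with a background of 7.67% (4.65% higher, 3.02% lower). SKCO1 had 2 higher of 9, with a background of 18.9% (8.1% higher, 10.8% lower). SW1417 had 1 higher of 9, with a background of 6.98% (2.94% higher, 4.05% lower). Outside HCT116 these counts rest on ACSS1, ALDH6A1 and PCCB alone.

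DLD1 had 0 of 9 called, with a background of 0.148%, and SW948 had 0 of 9, with a background of 0%. At an unadjusted p below 0.05 the count was 1 of 9 in each. Over all genes tested it was 2398 of 13551 in DLD1 and 888 of 13334 in SW948. DESeq2 also called 0 of the 9 in each. The median log2 fold change of the pathway genes, 2-MiCit over control, was highest in HCT116 (0.13) and lowest in DLD1 (-0.09). It was 0.1 in SKCO1, 0.07 in SW1417, 0.04 in SW948, -0.01 in HT29 and 0 in LoVo. Over all genes tested the median was 0.027 in HCT116 and closer to 0 in the other lines.

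**Figure D1:**
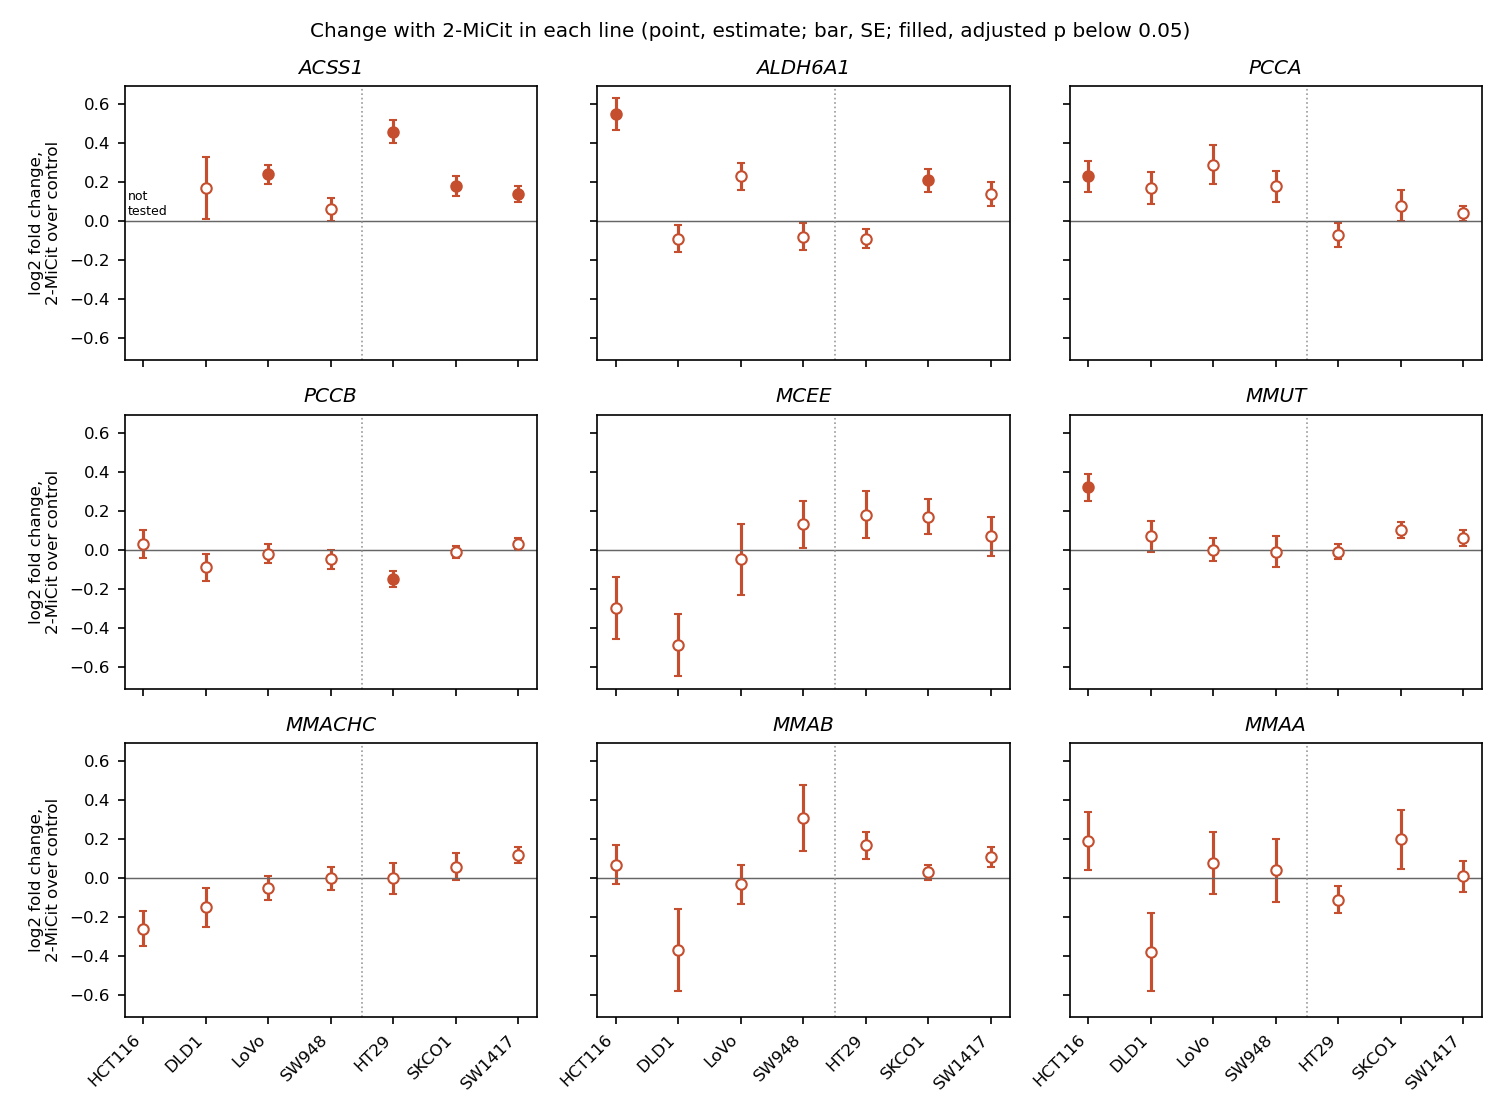
Log2 fold change of each gene, 2-MiCit over control, in 7 lines (y axis, log2; point, edgeR estimate; bar, SE; filled points, adjusted p below 0.05). The dotted line parts the 2 tables. ALDH6A1 in HCT116 (0.55) and ACSS1 in HT29 (0.46) were the 2 highest called points, and PCCB in HT29 (-0.15) was the filled point below 0.

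ACSS1 (ENSG00000154930, chr20:25006230-25058980 in GENCODE release 29, GRCh38, minus strand) encodes a mitochondrial acyl-CoA synthetase that activates acetate and, less readily, propionate. It was called higher in 4 of the 6 lines where it was tested and lower in 0. Of 17 fits, 17 made the call in HT29, 8 in LoVo, 9 in SKCO1 and 9 in SW1417. The shares of all genes called higher there were 4.65%, 1.59%, 8.1% and 2.94%, in that order. How many genes at large were called higher in as many lines was not counted. In HT29 it had 82, 93.4, 81.9 and 87.7 CPM with 2-MiCit and 58.7, 67.8, 59.9 and 64.6 CPM in controls. All 4 treated libraries were above all 4 controls, and the log2 fold change was 0.46 ± 0.06 (SE; adjusted p = 0.00127, edgeR).

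LoVo had 102, 101, 95.8 and 94.4 CPM of ACSS1 with 2-MiCit and 79.7, 87, 80.7 and 82.6 CPM in controls, again without overlap. The log2 fold change was 0.24 ± 0.05 (SE; adjusted p = 0.0447, edgeR). That call was lost without any 1 of the 2-MiCit libraries and without control replicate 2 or 3, at edgeR adjusted p from 0.0699 to 0.167.

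In SKCO1 ACSS1 had 27.5, 29.7, 32.5 and 31.5 CPM with 2-MiCit and 27.3, 28.6, 24.7 and 27.1 CPM in controls, and the groups overlapped. The log2 fold change was 0.18 ± 0.05 (SE; adjusted p = 0.0273, edgeR), and the call failed without 2-MiCit replicate 3 or 4 or control replicate 1, 3 or 4 (adjusted p 0.0567 to 0.0842). The estimates in these fits were 0.14 to 0.19 (log2). The call also failed with all libraries kept in 1 fit over all lines of the table (edgeR adjusted p = 0.0601). It failed likewise with the authors' scaling factors (0.144) and with a replicate block (0.0713). SW1417 had 49.2, 51.5, 52.5 and 48.6 CPM with 2-MiCit and 45.1, 48.7, 45.6 and 44.1 CPM in controls, with 1 control above the lowest treated library. The log2 fold change was 0.14 ± 0.04 (SE; adjusted p = 0.0361, edgeR), lost without 2-MiCit replicate 1, 2 or 3 or control replicate 1, 3 or 4 (adjusted p 0.0589 to 0.124).

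SW948, the line with the most ACSS1, had 211, 214, 199 and 204 CPM with 2-MiCit and 200, 208, 191 and 196 CPM in controls. The groups overlapped, and the log2 fold change of 0.06 ± 0.06 (SE; adjusted p = 0.648, edgeR) was not called. In DLD1 ACSS1 was at 4.43 to 5.36 CPM with 2-MiCit and 3.18 to 5.11 CPM in controls. HCT116 had almost no ACSS1: 12 counts over the 4 libraries with 2-MiCit and 14 over the 4 controls, 2 to 5 in a library, too few for the filter on low counts, and the gene was not tested there.

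Control levels of ACSS1 averaged 199 ± 7.22, 82.5 ± 3.2, 4.25 ± 0.806 and 0.213 ± 0.088 CPM (SD, n = 4 each) in SW948, LoVo, DLD1 and HCT116, and all 6 pairs of these lines differed. SW948 over HCT116 was 934-fold by the means, a ratio that rests on 14 counts in HCT116. Among genes whose highest line reached 1 CPM, 21.4% differed by more than 10-fold between these 4 lines. HT29 had 62.8 ± 4.22 CPM, SW1417 45.9 ± 1.94 CPM and SKCO1 26.9 ± 1.62 CPM (SD, n = 4 each), in that order, and each pair differed.

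**Figure D2:**
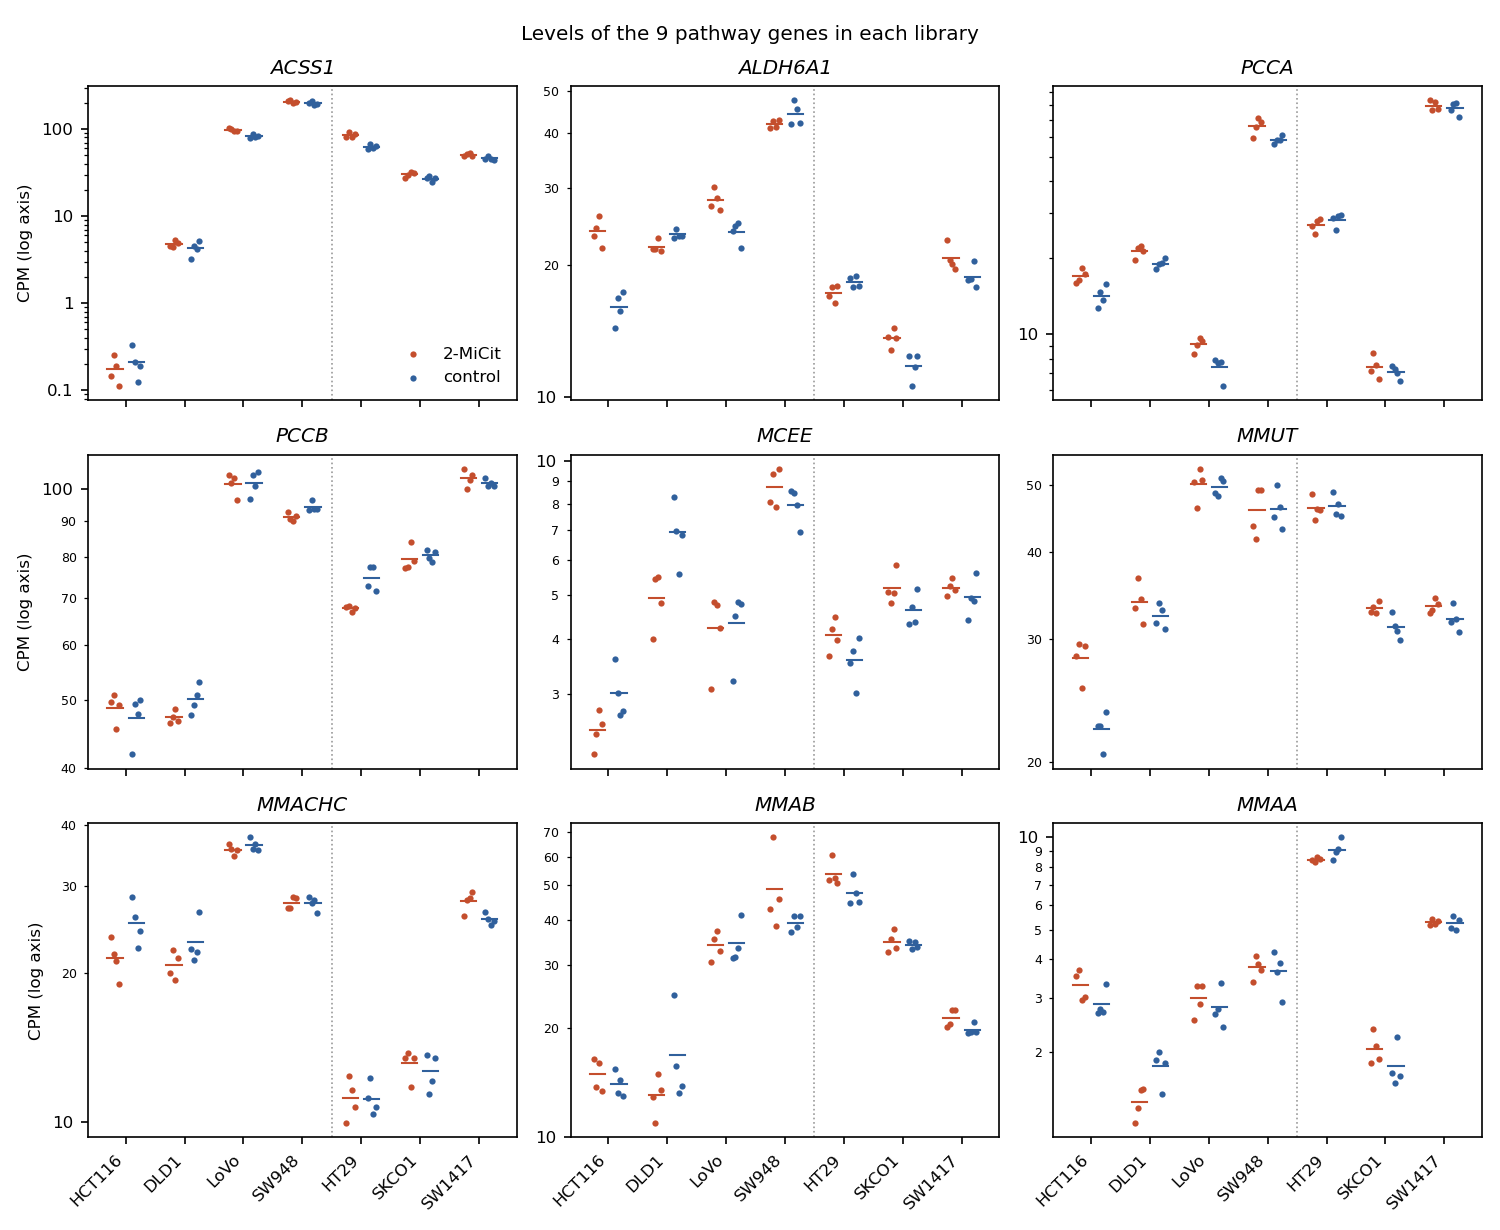
Level of each gene in every library by line, in CPM on log axes that differ between panels (orange, 2-MiCit; blue, control; point, library; line, mean of 4). The dotted line parts the 2 tables, which were scaled separately. ACSS1 spans 0.213 CPM in HCT116 controls to 199 CPM in SW948 controls.

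ALDH6A1 (ENSG00000119711, chr14:74056850-74084493, minus strand), the dehydrogenase that makes propionyl-CoA at the end of valine breakdown, gave the largest called change. HCT116 had 23.3, 24.3, 25.9 and 21.9 CPM with 2-MiCit and 14.4, 16.8, 15.7 and 17.4 CPM in controls. The groups did not overlap: the lowest treated library stood above the highest control. Means were 23.9 ± 1.7 CPM with 2-MiCit and 16.1 ± 1.33 CPM in controls (SD, n = 4 each), a log2 fold change of 0.55 ± 0.08 (SE; adjusted p = 0.000542, edgeR).

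In SKCO1 ALDH6A1 had 13.7, 12.8, 14.4 and 13.6 CPM with 2-MiCit and 12.4, 10.6, 11.7 and 12.4 CPM in controls, also without overlap. The log2 fold change was 0.21 ± 0.06 (SE; adjusted p = 0.0249, edgeR), and the call failed without 2-MiCit replicate 1, 3 or 4 or control replicate 2 or 3 (adjusted p 0.0503 to 0.0647). LoVo was similar in size but not called, with 27.2, 30.2, 28.5 and 26.7 CPM with 2-MiCit and 23.9, 24.6, 24.9 and 21.9 CPM in controls. Its groups did not overlap, and the log2 fold change was 0.23 ± 0.07 (SE; adjusted p = 0.101, edgeR). Of 17 fits, 2 made the call in LoVo. These were 1 fit over all lines of the table (edgeR adjusted p = 0.0487) and the length trend removed (0.048). In SW1417 the difference was 0.14, and in DLD1, SW948 and HT29 it was -0.09, -0.08 and -0.09 (log2), none of them called. The DLD1 groups did not overlap either, with 21.5 to 23 CPM with 2-MiCit and 23.1 to 24.2 CPM in controls.

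The response of ALDH6A1 differed between HCT116, DLD1, LoVo and SW948 (adjusted p = 9.41e-06, edgeR F test of the interaction of line and treatment). That test called 2 of the 9 pathway genes, ALDH6A1 and MMUT, with a background of 18%. The log2 response in HCT116 exceeded that in DLD1 by 0.66 ± 0.09 (SE; adjusted p = 1.76e-05, edgeR; background of that pair 8.34%) and that in SW948 by 0.65 ± 0.09 (SE; adjusted p = 9.26e-06; background 18.7%). Against LoVo it was larger by 0.33 ± 0.09 (SE; adjusted p = 0.0227, edgeR; background 6.04%), a call lost without replicate 1, 2 or 3 of every group (adjusted p 0.0933 to 0.282).

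In controls ALDH6A1 averaged 44.2 ± 2.7 CPM in SW948, 23.8 ± 1.34 CPM in LoVo, 23.5 ± 0.522 CPM in DLD1 and 16.1 ± 1.33 CPM in HCT116. DLD1 and LoVo did not differ beyond their spread (log2 difference, DLD1 minus LoVo, -0.02 ± 0.07 SE), and the other pairs did. With 2-MiCit the level in HCT116, 23.9 CPM, lay near the controls of DLD1 and LoVo, a comparison that was not tested. SW1417 had 18.8 ± 1.1 CPM, HT29 18.3 ± 0.575 CPM and SKCO1 11.8 ± 0.832 CPM (mean ± SD, n = 4 each, as for the controls of the genes that follow), and SW1417 and HT29 did not differ beyond their spread (log2 difference, HT29 minus SW1417, -0.04 ± 0.06 SE).

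PCCA (ENSG00000175198, chr13:100089015-100530437, plus strand) encodes the carboxylase subunit that carries biotin. HCT116 had 15.9, 16.3, 18.2 and 17.3 CPM with 2-MiCit and 12.7, 14.6, 13.6 and 15.8 CPM in controls. The lowest treated library, 15.9 CPM, was just above the highest control, and the log2 fold change was 0.23 ± 0.08 (SE; adjusted p = 0.0484, edgeR). The call held in 6 of 17 fits: DESeq2 gave an adjusted p of 0.0941, and leaving out any 1 library other than control replicate 4 gave 0.0575 to 0.13 in edgeR.

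LoVo had 8.37, 9.03, 9.65 and 9.37 CPM of PCCA with 2-MiCit and 7.9, 7.68, 7.76 and 6.24 CPM in controls. The groups did not overlap, and the log2 fold change of 0.29 ± 0.1 (SE; adjusted p = 0.141, edgeR) was not called. Estimates in the other lines were 0.17 in DLD1, 0.18 in SW948, -0.07 in HT29, 0.08 in SKCO1 and 0.04 in SW1417 (log2), none called.

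Between lines PCCA varied more than the other genes, ACSS1 in the table of 4 lines excepted. Controls averaged 58.4 ± 2.05 CPM in SW948, 18.9 ± 0.781 CPM in DLD1, 14.2 ± 1.33 CPM in HCT116 and 7.4 ± 0.775 CPM in LoVo (SD, n = 4 each), and every pair differed. SW948 was 7.89-fold above LoVo by the means. In the other table SW1417 had 77.5 ± 4.49 CPM, HT29 28.3 ± 1.8 CPM and SKCO1 7.07 ± 0.392 CPM (SD, n = 4 each), every pair differed, and SW1417 was 11-fold above SKCO1. A difference above 10-fold was found for 19.4% of genes among those 3 lines.

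PCCB (ENSG00000114054, chr3:136250306-136337896, plus strand) encodes the partner subunit, which transfers the carboxyl group. It was called lower in HT29, with 67.9, 68.2, 66.9 and 67.7 CPM with 2-MiCit and 72.7, 77.4, 77.5 and 71.6 CPM in controls. The 4 treated libraries lay within a narrow band below all controls, and the log2 fold change was -0.15 ± 0.04 (SE; adjusted p = 0.0372, edgeR). That call failed without 2-MiCit replicate 1, 3 or 4 or control replicate 1, 2 or 3 (adjusted p 0.0611 to 0.122). In the other 6 lines the estimates lay between -0.09 and 0.03 (log2) and none was called. SW948 was the other line without overlap, with 90 to 92.8 CPM with 2-MiCit and 93.6 to 96.5 CPM in controls (-0.05).

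Control levels of PCCB varied slightly less than those of the median gene: 102 ± 4.12 CPM in LoVo, 94.4 ± 1.4 in SW948, 50.2 ± 2.31 in DLD1 and 47.2 ± 3.73 in HCT116, a 2.16-fold range, against a median of 2.44-fold over all genes. LoVo and SW948 did not differ beyond their spread, nor did DLD1 and HCT116. SW1417 had 102 ± 1.5 CPM, SKCO1 80.5 ± 1.46 CPM and HT29 74.8 ± 3.07 CPM, a 1.36-fold range against a median of 2.39-fold, and each pair differed.

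Levels of the 2 subunits were compared per length, in TPM (each transcript's share of all transcripts), with the median length of each gene's coding transcripts. The ratio of PCCA to PCCB averaged 0.258 with 2-MiCit and 0.223 in controls in HCT116, and 0.333 with 2-MiCit and 0.28 in controls in DLD1. LoVo had 0.0663 with 2-MiCit and 0.0538 in controls, and SW948 0.536 with 2-MiCit and 0.458 in controls. In HT29 it was 0.295 with 2-MiCit and 0.281 in controls, in SKCO1 0.0694 with 2-MiCit and 0.065 in controls, and in SW1417 0.569 with 2-MiCit and 0.565 in controls.

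The transcript of PCCA was thus below that of PCCB in every group, with the lowest ratios in LoVo and SKCO1 and the highest in SW948 and SW1417. HCT116 (0.237 to 0.298 with 2-MiCit, 0.212 to 0.235 in controls) and DLD1 (0.313 to 0.343 with 2-MiCit, 0.277 to 0.284 in controls) were the lines in which the libraries of the 2 groups did not overlap. This change of the ratio was not tested. With the length of all exons joined the ratios were larger, for example 0.311 in HCT116 controls and 0.788 in SW1417 controls. That change of length multiplies the ratio of every library by the same factor, so it cannot alter the order of lines. After the mean of each line was taken out, PCCA and PCCB had a Pearson r of 0 over the 56 libraries, which share treatment, depth and line.

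**Figure D3:**
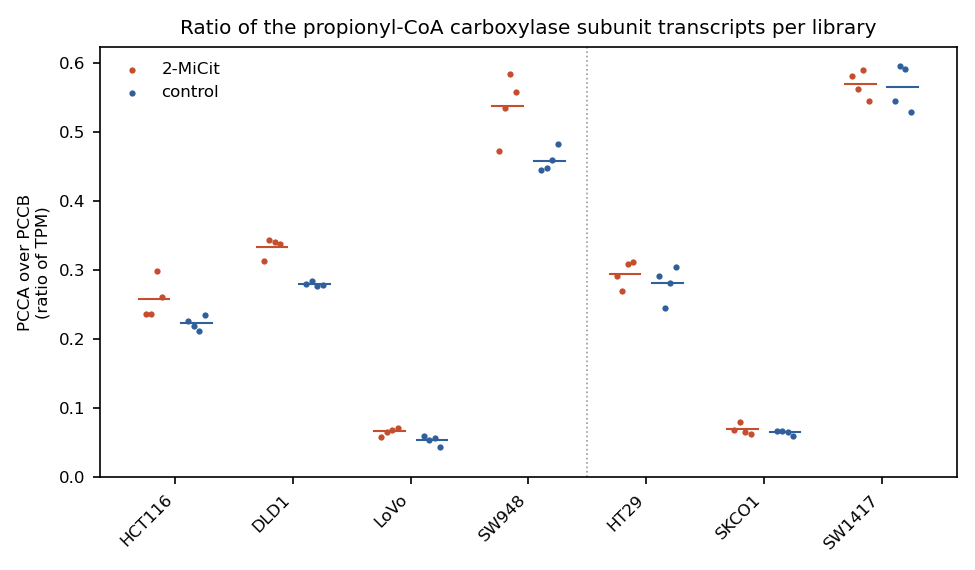
Ratio of PCCA to PCCB in TPM (y axis, linear, from 0) in every library by line (orange, 2-MiCit; blue, control; point, library; line, mean of 4). Control means run between 0.0538 in LoVo and 0.565 in SW1417, and treated and control libraries stand apart in HCT116 and DLD1.

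MCEE (ENSG00000124370, chr2:71109684-71130239, minus strand), the epimerase that turns methylmalonyl-CoA into the form the mutase accepts, was called in 0 of 7 lines. The largest estimate was in DLD1, with 3.99, 5.43, 5.5 and 4.81 CPM with 2-MiCit and 8.3, 6.96, 5.57 and 6.82 CPM in controls. The groups did not overlap, and the log2 fold change of -0.49 ± 0.16 (SE; adjusted p = 0.242, edgeR) was not called. MCEE has a short transcript (835 bases), and the highest control is the library with the steep length trend. Without that library the estimate was -0.38, and with the trend removed from all libraries it was -0.24. HCT116 had -0.3 ± 0.16 and the other 5 lines between -0.05 and 0.18 (log2).

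In controls MCEE stood at 7.98 ± 0.756 CPM in SW948, 6.91 ± 1.12 in DLD1, 4.33 ± 0.755 in LoVo and 3.02 ± 0.41 in HCT116, where SW948 and DLD1 did not differ beyond their spread. SW1417 had 4.95 ± 0.499 CPM, SKCO1 4.63 ± 0.396 CPM and HT29 3.58 ± 0.423 CPM, where SW1417 and SKCO1 did not differ beyond their spread. The gene had 39 to 143 counts in a library of the first 4 lines, so its errors are wider than those of PCCB, at 627 to 1684 counts.

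MMUT (ENSG00000146085, chr6:49430360-49463191, minus strand), the mutase itself, was called higher in HCT116. It had 28.4, 29.5, 25.5 and 29.3 CPM with 2-MiCit and 22.5, 22.5, 20.5 and 23.6 CPM in controls. All 4 treated libraries were above all 4 controls. Means were 28.2 ± 1.85 CPM with 2-MiCit and 22.3 ± 1.28 CPM in controls (SD, n = 4 each), a log2 fold change of 0.32 ± 0.07 (SE; adjusted p = 0.00603, edgeR).

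Length trends in HCT116 had slopes of -0.0336 to 0.125 with 2-MiCit and -0.118 to 0.0333 in controls. With the trend removed MMUT changed by 0.26 (adjusted p = 0.00607, edgeR) and ALDH6A1 by 0.57 (adjusted p = 9.73e-05, edgeR), both on the log2 scale. In the other 6 lines the MMUT estimates lay between -0.01 and 0.1 (log2), none called. The highest of these was SKCO1, with 32.8, 33.4, 32.7 and 34.1 CPM with 2-MiCit and 32.8, 31.3, 30.8 and 29.9 CPM in controls (0.1 ± 0.04, SE; adjusted p = 0.0741, edgeR).

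The MMUT response differed between the 4 lines of its table (adjusted p = 0.0241, edgeR F test of the interaction). HCT116 exceeded LoVo by a log2 difference of 0.33 ± 0.09 (SE; adjusted p = 0.0307, edgeR) and SW948 by one of 0.35 ± 0.09 (SE; adjusted p = 0.00929, edgeR). Against DLD1 the difference of 0.27 ± 0.09 was not called (SE; adjusted p = 0.0686, edgeR), though DESeq2 (0.0336), the length trend removed (0.026) and a filter at a mean of 1 CPM (0.0471) called it. The call over 4 lines was lost without any 1 replicate number of every group (adjusted p 0.0562 to 0.235), and that against LoVo likewise (0.112 to 0.162). The call against SW948 was lost with the length trend removed (0.0829) and without replicate 1 (0.0579) or 2 (0.198).

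Controls had 49.7 ± 1.51 CPM of MMUT in LoVo, 46.2 ± 2.86 in SW948, 32.4 ± 1.26 in DLD1 and 22.3 ± 1.28 in HCT116, where LoVo and SW948 did not differ beyond their spread. HCT116 with 2-MiCit, at 28.2 CPM, was still the lowest of these lines. HT29 had 46.6 ± 1.72 CPM, SW1417 32.1 ± 1.27 CPM and SKCO1 31.2 ± 1.2 CPM, where SW1417 and SKCO1 did not differ beyond their spread.

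MMACHC (ENSG00000132763, chr1:45500053-45513382, plus strand) trims incoming cobalamin in the cytosol. In HCT116 it had 23.7, 21.9, 21.2 and 19 CPM with 2-MiCit and 28.5, 26, 22.5 and 24.4 CPM in controls. The groups overlapped, and the log2 fold change of -0.26 ± 0.09 (SE; adjusted p = 0.0534, edgeR) just missed the call, which 8 of the 17 fits made, DESeq2 among them (adjusted p = 0.0351). The estimate for MMACHC ran opposite to those for ALDH6A1 and MMUT in the same libraries. The other lines had -0.15 to 0.12 (log2), none called.

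Controls had 36.4 ± 0.96 CPM of MMACHC in LoVo, 27.8 ± 0.903 in SW948, 25.4 ± 2.55 in HCT116 and 23.1 ± 2.36 in DLD1, where the test called HCT116 different from neither SW948 nor DLD1. SW1417 had 25.7 ± 0.638 CPM, SKCO1 12.7 ± 1.1 CPM and HT29 11.1 ± 0.838 CPM, and every pair of these differed. The range of 1.58-fold over the first 4 lines was the narrowest of the 9 genes there.

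MMAB (ENSG00000139428, chr12:109553737-109573874, minus strand) attaches the adenosyl group to cobalamin and was called in 0 of 7 lines. In DLD1 it had 12.9, 10.9, 14.9 and 13.5 CPM with 2-MiCit and 24.7, 15.7, 13.2 and 13.8 CPM in controls. SW948 had 42.8, 67.8, 38.5 and 45.8 CPM with 2-MiCit and 37, 41.1, 38.2 and 40.9 CPM in controls. In each line 1 library was high, the control at 24.7 CPM and the treated one at 67.8 CPM, and these are the 2 libraries with the steep length trend. Without its high library the log2 estimate went from -0.37 to -0.12 in DLD1 and from 0.31 to 0.1 in SW948. Neither was called with or without it.

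The response of MMAB in DLD1 was called lower than that in SW948, with a log2 difference of -0.67 ± 0.23 (SE; adjusted p = 0.0493, edgeR), with a background of 13.2% for that pair. Without those 2 libraries it was -0.22 (adjusted p = 0.486, edgeR), so the call rests on them. It was also lost without replicate 1, 2 or 4 of every group (0.0823 to 0.375). In HT29 MMAB had 51.7, 60.5, 52.2 and 50.8 CPM with 2-MiCit and 44.5, 53.8, 47.6 and 44.8 CPM in controls, with 0.17 ± 0.07 (SE; adjusted p = 0.167, edgeR).

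Controls had 39.3 ± 2.01 CPM of MMAB in SW948, 34.4 ± 4.72 in LoVo, 16.8 ± 5.35 in DLD1 and 14 ± 1.13 in HCT116. SW948 and LoVo did not differ beyond their spread, nor did DLD1 and HCT116. HT29 had 47.7 ± 4.35 CPM, SKCO1 34.1 ± 0.849 CPM and SW1417 19.8 ± 0.664 CPM, and every pair differed.

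MMAA (ENSG00000151611, chr4:145599042-145660035, plus strand), the GTP-binding partner that guards the cofactor on the mutase, was called in 0 of 7 lines. Its log2 estimates ran between -0.38 (DLD1, SE 0.2) and 0.2 (SKCO1, SE 0.15), on 20 to 72 counts in a library of the first 4 lines. DLD1 had 1.17, 1.31, 1.5 and 1.51 CPM with 2-MiCit and 1.88, 2, 1.45 and 1.83 CPM in controls, with 1 control inside the treated range. HT29 stood apart in level, with 9.11 ± 0.661 CPM in controls, against 5.24 ± 0.264 CPM in SW1417 and 1.79 ± 0.294 CPM in SKCO1, and each pair differed. SW948 had 3.66 ± 0.557 CPM, HCT116 2.86 ± 0.307, LoVo 2.79 ± 0.407 and DLD1 1.79 ± 0.234, where the test called HCT116 different from neither LoVo nor SW948.

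Control levels differed between lines for 9 of 9 genes among the first 4 lines (background 91.4%) and for 9 of 9 among the other 3 (background 94.3%), so this is the common state of genes in these lines. Of the tests of 1 gene between 2 lines, 43 of 54 were called in the table of 4 lines. The backgrounds were 62.9% for HCT116 with DLD1, 67.4% for HCT116 with LoVo, 73.8% for HCT116 with SW948, 66.5% for DLD1 with LoVo, 70.3% for DLD1 with SW948 and 68.7% for LoVo with SW948. In the table of 3 lines 24 of 27 were called, with backgrounds of 84.1% for HT29 with SKCO1, 82.8% for HT29 with SW1417 and 84.3% for SKCO1 with SW1417. The order was least firm for MMAA, where LoVo against SW948 (adjusted p = 0.0469, edgeR) was lost without any 1 replicate number (0.0537 to 0.264). MMAA also lost DLD1 against LoVo without replicate 3 (0.0633). For MMACHC the call of HT29 against SKCO1 was lost without replicate 1, 3 or 4 (0.0751 to 0.185), and for MCEE that of HCT116 against LoVo without replicate 2, 3 or 4 (0.0657 to 0.0799). Further losses were MMACHC in DLD1 against SW948 without replicate 2 (0.0928) or 3 (0.0623) and MCEE in HT29 against SKCO1 without replicate 3 (0.0524). PCCB in HT29 against SKCO1 was lost without replicate 4 (0.0981). Other calls were gained in edgeR: PCCB in LoVo against SW948 without replicate 1 (adjusted p = 0.0138). Without replicate 4, MMAA in HCT116 against SW948 (0.0222) and MMACHC in HCT116 against DLD1 (0.0345) were gained. Per length, PCCB was the highest of the 9 genes in the controls of 6 of 7 lines, and ACSS1, at 124 TPM, exceeded it in SW948. MMAA was the lowest in 6 of 7 lines, and ACSS1 was lower in HCT116. With the length of all exons joined, PCCB was highest in 4 lines and MMUT in DLD1 and HT29.

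Among HT29, SKCO1 and SW1417 the response differed for 2 of 9 genes, PCCB and ACSS1, with a background of 5.49% (edgeR F test of the interaction, adjusted p = 0.024 and 0.0232). ALDH6A1 missed that call (adjusted p = 0.055, same test). DESeq2 (0.0384) and edgeR with a replicate block (0.0482) called it. ACSS1 responded more in HT29 than in SKCO1, by 0.28 ± 0.08 (SE; adjusted p = 0.0418, edgeR; background 4.14%), and than in SW1417, by 0.31 ± 0.08 (SE; adjusted p = 0.024, edgeR; background 3.44%). PCCB fell in HT29 (-0.15) and was not called in SW1417 (0.03). Its response was thus lower in HT29, by -0.18 ± 0.04 (SE; adjusted p = 0.0158, edgeR). The ALDH6A1 response was lower in HT29 than in SKCO1, by -0.3 ± 0.08 (SE; adjusted p = 0.0401, edgeR); all of these are log2 values. In edgeR 0 of the 9 genes responded differently between SKCO1 and SW1417 (background 1.03%), between DLD1 and LoVo (0.506%) or between LoVo and SW948 (0.038%). At an unadjusted p below 0.05 the counts were 0, 2 and 1 in that order. Over all genes tested they were 2027 of 16090, 1457 of 15800 and 2494 of 15800. DESeq2 called 0 of the 9 for the first pair and ALDH6A1 for both others (adjusted p = 0.0348 and 0.0343). Both F test calls were lost without any 1 replicate number of every group, at adjusted p of 0.0588 to 0.151 for ACSS1 and 0.0732 to 0.184 for PCCB. Of the pairs, ACSS1 was lost without any 1 replicate number (0.0638 to 0.249 against SKCO1, 0.0596 to 0.107 against SW1417), as was ALDH6A1 (0.0811 to 0.286), and PCCB without replicate 1, 3 or 4 (0.072 to 0.137). HT29 was the line in which ACSS1 and PCCB were called in opposite directions.

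Genes that surround the route were read from 5 lists, whose counts in HCT116 stand against 37% of all genes called there. Of 22 genes of branched-chain and odd-chain oxidation, HCT116 had 2 higher and 3 lower of 21 tested, with a median log2 fold change of 0.04, a smaller share than among all genes. BCKDHB, a subunit of the branched-chain keto acid dehydrogenase, had 10.1 CPM with 2-MiCit and 6.72 CPM in controls (0.56 ± 0.13, SE; adjusted p = 0.00634, edgeR). BCKDK, the kinase that switches that dehydrogenase off, had 41.5 CPM with 2-MiCit and 55 CPM in controls (-0.43 ± 0.06, SE; adjusted p = 0.000372, edgeR). BCKDK was also lower in HT29 (-0.17 ± 0.04, SE; adjusted p = 0.0228, edgeR), a call lost without 2-MiCit replicate 3 or 4 or control replicate 2 or 3 (0.0508 to 0.0744). HSD17B10, an enzyme of isoleucine breakdown, was lower in HCT116 (-0.51) and SKCO1 (-0.13), and BCAT2, a mitochondrial aminotransferase, was lower in SKCO1 (-0.14). BCKDHA, the partner subunit of BCKDHB, was higher in SKCO1 (0.12) and SW1417 (0.13). The call of BCAT2 was lost without SKCO1 2-MiCit replicate 1 or 2 or control replicate 1 or 3 (edgeR adjusted p 0.0557 to 0.0779). It was also lost with 1 fit over all lines of the table (0.0688) and with the authors' scaling factors (0.122). BCKDHA was lost in SKCO1 without 2-MiCit replicate 1, 3 or 4 or control replicate 2 or 4 (0.0659 to 0.0818) and in SW1417 without any 1 library but control replicate 2 (0.0617 to 0.134). The list had 3 calls in SKCO1 (background 18.9%), 1 each in HT29 (7.67%), LoVo (2.3%) and SW1417 (6.98%), and 0 in DLD1 (0.148%) and SW948 (0%), and the same backgrounds hold for the lists that follow. In DLD1 and SW948 3 and 1 of 21 genes tested had an unadjusted p below 0.05. Over all genes tested the counts were 2398 of 13551 and 888 of 13334.

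Of 10 genes of cobalamin uptake and use, HCT116 had 2 higher and 3 lower of 8 tested, with a median of -0.08. CD320, the receptor that takes up cobalamin on transcobalamin, had 68 CPM with 2-MiCit and 96.1 CPM in controls (-0.52 ± 0.08, SE; adjusted p = 0.000859, edgeR). It was also lower in SKCO1 (-0.12 ± 0.03, SE; adjusted p = 0.00624, edgeR; 0.0617 with 1 fit over all lines of the table). MMADHC, which hands cobalamin on after MMACHC, was lower in HCT116 (-0.26), and LMBRD1, a lysosomal cobalamin exporter, was higher (0.28), a call lost without 2-MiCit replicate 1 or control replicate 2, 3 or 4 (0.0516 to 0.0791). TCN1, haptocorrin, was at 0.886 CPM with 2-MiCit and 0.421 CPM in controls there (1.03), a call lost without 2-MiCit replicate 2 or control replicate 2 or 4 (0.0523 to 0.0645). TCN2, transcobalamin, was higher in HT29 (0.35), a call lost without 2-MiCit replicate 4 (0.0744) or control replicate 3 (0.0733). LoVo, DLD1, SW948 and SW1417 had 0 calls in this list.

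The 8 biotin carboxylase and biotin handling genes had 3 higher and 1 lower in HCT116, with a median of 0.2. PC, pyruvate carboxylase, had 19.4 CPM with 2-MiCit and 13.7 CPM in controls (0.49 ± 0.08, SE; adjusted p = 0.00105, edgeR), and SLC5A6, a biotin transporter, was lower (-0.27). MCCC1, which is also in the oxidation list, was higher in HCT116 (0.34) and LoVo (0.28), and BTD, which recycles biotin, in HT29 (0.24) and SKCO1 (0.16). MCCC1 in LoVo was lost without any 1 of the 2-MiCit libraries or without control replicate 2 or 3 (0.0726 to 0.173). BTD was lost in HT29 without any 1 library but replicate 2 of either group (0.0526 to 0.123) and in SKCO1 without any but control replicate 1 (0.0591 to 0.12). With the authors' scaling factors BTD in SKCO1 was 0.03 (adjusted p = 0.855, edgeR).

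The 8 genes of succinyl-CoA use had 2 higher and 2 lower in HCT116, with a median of -0.05, and 1 lower in SKCO1, SDHD (-0.12). OGDH (0.26) and SUCLG2 (0.18) were higher in HCT116, and SUCLA2 (-0.24) and SDHB (-0.23) were lower. SUCLG2 was lost without any 1 library but 2-MiCit replicate 4 (0.0736 to 0.145), and SDHB without any but 2-MiCit replicate 3 or control replicate 4 (0.0559 to 0.0917).

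Of 10 genes of short-chain acyl-CoA synthesis and side routes, HCT116 had 3 higher and 2 lower of 8 tested, with a median of 0.18. ACSS2, the cytosolic and nuclear relative of ACSS1, was higher in 3 lines. It had 26.5 CPM with 2-MiCit and 20.7 CPM in controls in HCT116 (0.34 ± 0.06, SE; adjusted p = 0.00248, edgeR). HT29 had 21.9 CPM with 2-MiCit and 14.7 CPM in controls (0.58 ± 0.06, SE; adjusted p = 0.000694, edgeR), and SKCO1 had 71.9 CPM with 2-MiCit and 60.5 CPM in controls (0.26 ± 0.03, SE; adjusted p = 0.00015, edgeR; 0.0785 with the authors' scaling factors). ACSS1 and ACSS2 were both called in HT29 and SKCO1. MLYCD, malonyl-CoA decarboxylase, was higher in HCT116 (0.43), a call lost with the length trend removed (0.171). The carboxylate transporters SLC16A1 (-0.22) and SLC16A3 (-0.28) were lower in HCT116.

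Of the 9 genes, 5 start within 1000 bases of a protein-coding gene on the opposite strand, against 15.7% of 15087 genes in the tables. MMUT and CENPQ, a centromere protein, start 187 bases apart, and ALDH6A1 and LIN52, a subunit of the DREAM cell cycle complex, 303 bases apart. In HCT116 MMUT was higher (0.32), while CENPQ was lower (-0.37 ± 0.07, SE; adjusted p = 0.00227, edgeR). ALDH6A1 was higher (0.55), while LIN52 was lower (-0.29 ± 0.07, SE; adjusted p = 0.0084, edgeR). Both neighbours kept these calls in 17 of 17 fits, so the genes of each pair were called in opposite directions. The difference within a pair was not tested. CENPQ was also lower in SKCO1 (-0.25 ± 0.07, SE; adjusted p = 0.0164, edgeR), a call lost without 2-MiCit replicate 2 or control replicate 1 or 3 (0.0512 to 0.0569).

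MCEE starts 75 bases from MPHOSPH10, a ribosome biogenesis factor, which was lower in HCT116 (-0.56 ± 0.05, SE; adjusted p = 3.62e-05, edgeR), where MCEE had -0.3. MMAB overlaps the start of MVK, mevalonate kinase (distance between starts -619 bases). MVK was higher in HT29 (0.42 ± 0.1, SE; adjusted p = 0.0289, edgeR), where MMAB had 0.17, and the call failed without 2-MiCit replicate 4 or control replicate 1, 3 or 4 (0.0567 to 0.0956). MMACHC overlaps the start of CCDC163 (-26 bases). CCDC163 was lower in HCT116 (-0.85 ± 0.17, SE; adjusted p = 0.00321, edgeR), where MMACHC had -0.26. It was also lower in HT29 (-0.64 ± 0.17, SE; adjusted p = 0.0452, edgeR), where MMACHC had 0, a call lost without any 1 library but 2-MiCit replicate 2 (0.0582 to 0.105). The library kit keeps the strand of the RNA, but the sources used here do not say whether counting used it, so shared reads of the 2 overlapping pairs cannot be told apart. Over the 56 libraries, with the mean of each line taken out, Pearson r was -0.4 for ALDH6A1 with LIN52, -0.26 for MMUT with CENPQ, 0.26 for MMACHC with CCDC163, 0.37 for MCEE with MPHOSPH10 and 0.59 for MMAB with MVK. Libraries of both treatments enter these r values, so they also carry the fold changes given above. These neighbours were examined after their values were seen.

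**Figure D4:**
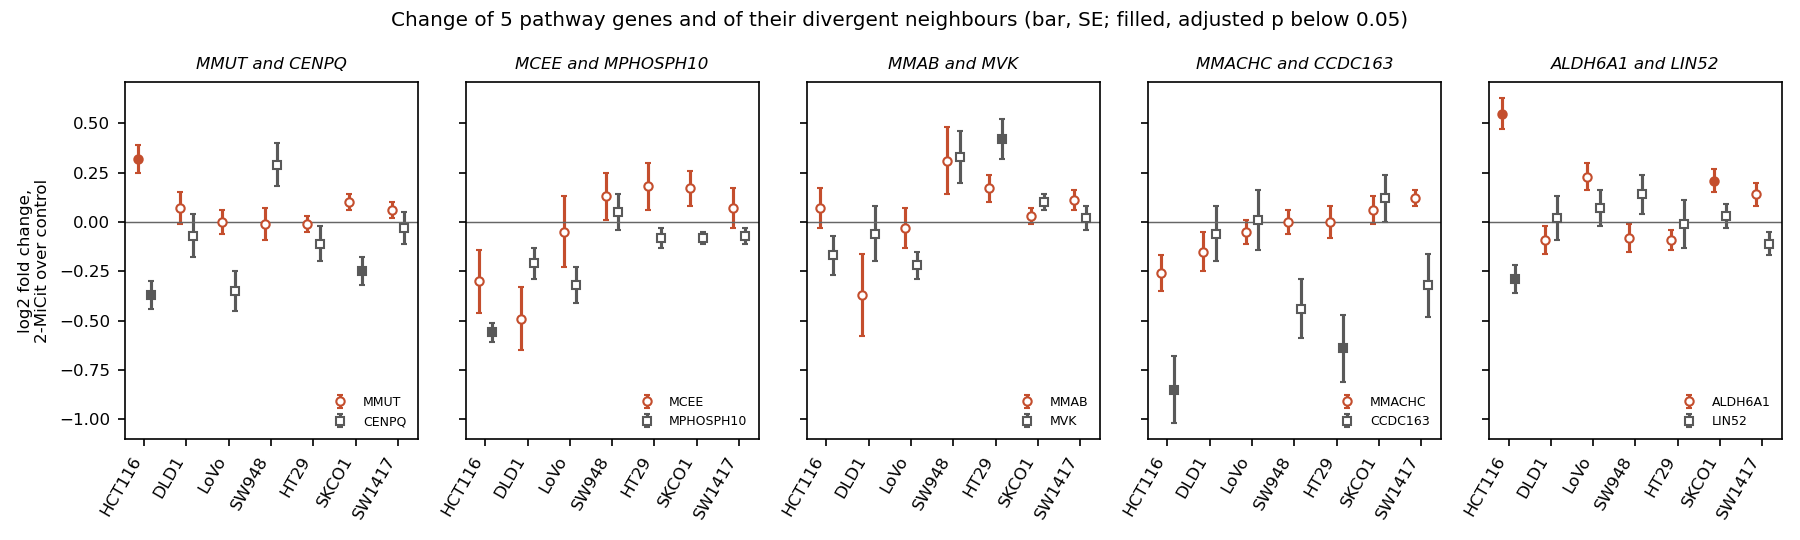
Log2 fold change, 2-MiCit over control (y axis), of 5 pathway genes (orange circles) and of the divergent neighbour of each (grey squares) in 7 lines (bar, SE; filled, adjusted p below 0.05). In HCT116 MMUT (0.32) and CENPQ (-0.37) stand on opposite sides of 0, as do ALDH6A1 (0.55) and LIN52 (-0.29).

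Across libraries, with each line's mean taken out, the 8 genes compared (ACSS1, not tested in HCT116, was left out) varied together only in part. The highest Pearson r among them was 0.57 for MMUT with ALDH6A1, followed by 0.53 for PCCA with ALDH6A1 and 0.49 for MCEE with MMAB (n = 56 libraries, which share treatment, depth and line). Among 10807 genes, those most like MMUT were CEP57, CREBL2 and HINT3 (r = 0.83 each). Those most like PCCA were YPEL5 (0.69), PTTG1IP (0.65) and DUSP3 (0.64). Libraries of both treatments enter these values, which are descriptions of shared variation.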

How the data were processed

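RNA was sequenced in 56 libraries of 7 lines. The submitters' processing notes name Salmon 1.5.0, Trimmomatic 0.39, DESeq2, bcl2fastq 2.20.0 and build GRCh38.p13, without roles or settings. The deposited raw tables hold whole-number counts per Ensembl gene. The deposited normalized tables hold a signal, the counts divided by the authors' scaling factors, used here only for those factors (1 per library in the table of 4 lines, specific to gene and library in the table of 3). Symbols came from a gene name table, which left 1140 and 1162 genes without one (3.29% to 4.45% of counts).

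Counts were tested per line with edgeR 4.0.16 (R 4.3.3; filterByExpr with a count minimum of 10, TMM, robust quasi-likelihood F test, Benjamini-Hochberg adjustment, threshold 0.05). Line by treatment interactions and control levels were fitted within each table. CPM used TMM library sizes per table, and TPM used median lengths of coding transcripts in GENCODE release 29. The test was checked on simulated counts. Alternatives were DESeq2 1.42.0, other scalings and filters, length trend removal, a shared fit, a replicate block and left-out libraries. Replicates did not repeat one another: the lowest chi-square per degree of freedom of 84 pairs was 4.2.

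All 9 genes are named in every line; from each list, up to 2 called genes per line and direction are named by smallest p, and for PCCA and MMUT the 3 most alike genes; those of PCCB are not reported here. The genes and lists were chosen with earlier results of these data known, and divergent neighbours, promoter letters, joined-exon lengths and the joint omission of the 2 libraries with steep length trends were added after the data were seen. RefSeq promoters matched 9 of 9 genes by symbol, but the RefSeq starts of ACSS1 and MMAA lie far inside their GENCODE spans, so their windows are at internal starts. The RefSeq starts of MMAB and MMACHC also lie inside, less deeply. Distances to divergent neighbours are between GENCODE starts. LGALS4, COL1A2, DCN, PTPRC, CD3E and CDH5 were not analysed here.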

Additional observations from a re-analysis of the deposited data

Results flagged for a closer look

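In 6 of 126 groups of 4 libraries (4.76%), 1 library stood apart by Dixon's criterion, and chance gives about 1 in 20. PCCA had 6.24 CPM in LoVo control replicate 4, against 7.68 to 7.9 CPM in the other controls. PCCB had 96.5 CPM in SW948 control replicate 2 (others 93.6 to 93.9), and MMAA had 3.32 CPM in HCT116 control replicate 4 (others 2.67 to 2.76). MMAB had 60.5 CPM in HT29 2-MiCit replicate 2 (others 50.8 to 52.2) and 20.8 CPM in SW1417 control replicate 3 (others 19.4 to 19.5). MMACHC had 11.8 CPM in SKCO1 2-MiCit replicate 3 (others 13.5 to 13.8).

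The response to 2-MiCit differed between lines, by edgeR's test of the interaction, in 10 comparisons of 1 gene between 2 lines. Of 9 genes, 1 was called for HCT116 with DLD1 (background 8.34%), 2 for HCT116 with LoVo (6.04%) and 2 for HCT116 with SW948 (18.7%). DLD1 with SW948 had 1 (13.2%), HT29 with SKCO1 2 (4.14%) and HT29 with SW1417 2 (3.44%). The pairs DLD1 with LoVo, LoVo with SW948 and SKCO1 with SW1417 had 0 (0.506%, 0.038% and 1.03%). For ALDH6A1 the log2 difference of responses was 0.66 for HCT116 minus DLD1, 0.65 for HCT116 minus SW948, 0.33 for HCT116 minus LoVo and -0.3 for HT29 minus SKCO1. For MMUT it was 0.35 for HCT116 minus SW948 and 0.33 for HCT116 minus LoVo. ACSS1 had 0.31 for HT29 minus SW1417 and 0.28 for HT29 minus SKCO1, and PCCB had -0.18 for HT29 minus SW1417. MMAB had -0.67 for DLD1 minus SW948, which rests on 2 libraries: without them it was -0.22.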

How the results depend on the processing

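No called result changed direction under any setting run, but uncalled estimates did. With the authors' scaling factors PCCA in SKCO1 was -0.11 (range over settings -0.11 to 0.14) and MMACHC in SW1417 -0.06 (-0.06 to 0.15). The counts of called pathway genes in HCT116 (2 to 4) and SW948 (0), and those of control levels, stayed within 1.5 times. With 1 fit over all lines of a table the counts were 1 in DLD1 (MCEE), 1 in SKCO1 and 0 in SW1417. In LoVo that fit called ALDH6A1 (edgeR adjusted p = 0.0487) and lost ACSS1 (0.0907), so the count stayed at 1. With the authors' scaling factors the counts were 1 in HT29, 0 in SKCO1, 0 in SW1417 and 0 for responses that differ among HT29, SKCO1 and SW1417. In LoVo the count was 2 with the length trend removed and 0 with no filter on low counts. Leaving out 1 library gave 1 to 2 calls in HT29, 0 to 1 in LoVo, 0 to 2 in SKCO1 and 0 to 1 in SW1417. Leaving out 1 replicate number gave 1 differing response in the table of 4 lines and 0 in that of 3. The cause was not tested for the settings that keep all libraries; leaving out libraries leaves fewer samples. With a replicate block the counts were 0 in LoVo, 1 in SKCO1, 4 in HCT116 (with MMACHC) and 3 in HT29 (with MMAB, 0.17, adjusted p = 0.00859, edgeR). The block also lost ALDH6A1 in HCT116 minus LoVo (adjusted p = 0.0566). Same-numbered libraries deviated together with correlations between -0.32 and 0.29. In HCT116 they were 0.09 to 0.29, with a mean of 0.18 against -0.06 for other numbers. DLD1 went the other way, with a mean of -0.14 against 0.05. HCT116 had 3 of 4 best matched with their own number, as did SW948. Whether the numbers pair the libraries was not tested, and the main fits took them as unpaired. Low counts limit MMAA, MCEE and, in HCT116, ACSS1.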
